A study of Bos taurus with 3 samples.

Results

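The miRNAs described here are the cattle miRNAs whose miRBase number lies between those of miR-2286 and miR-2489 or between those of miR-2881 and miR-2904, in the small RNA of bovine milk-derived extracellular vesicles (BM-EVs). Members were chosen by the number in their name alone, with any suffix, and 202 of the 745 miRNA names listed in at least 1 library belonged to them, 181 in the first number block and 21 in the second. The vesicles came from untreated, pasteurized, skimmed milk of normal disease state and were isolated by acidification and salting-out with ammonium sulfate. The series held 3 libraries of this 1 condition, named here by the replicate number of their labels. With nothing to compare them to, the members' levels and the spread over the libraries are described. For the isolated vesicles the study took milk of 3 different expiration dates as biological replicates. Whether each library came from its own milk sample is not stated for the sequencing, so the spread between libraries may be biological, technical or both.

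MiRNAs are short RNAs cut from hairpin transcripts by the enzymes Drosha and Dicer, and either arm of the hairpin, named 5p or 3p, can give the mature miRNA that directs repression of messenger RNAs. miRBase numbers follow the order in which miRNAs were submitted, so a run of neighbouring numbers marks names that entered together and not a family of related sequence. Names of this kind rest on sequencing of cattle tissue, and for most of them no function is stated here. In vesicles, short fragments of tRNA, rRNA and other abundant RNAs lie beside miRNAs and are sequenced with them.

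Each library was counted in unique molecular indices (UMIs), which count copies of a molecule made by PCR once. Mature miRNAs had 77225, 373239 and 102058 UMIs in libraries 1, 2 and 3, and sequences matched to the Rfam database had 1013392, 1937450 and 863833. The lowest listed value was 11 UMIs, and a name unlisted in a library may therefore have had up to 10 UMIs in it. Library 2 stood apart, with 4.83 times the mature UMIs of library 1 but 2.12 times its UMIs in all, and mean shares are therefore given with and without it. Let-7b (26.8% to 31% of the mature UMIs), miR-148a (4.61% to 5.67%) and miR-200c (2.53% to 4.32%), which are abundant in milk and epithelium, were high in every library.

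The 202 members were many names with few molecules. They made up 26.4%, 26.2% and 26.8% of the names listed in libraries 1, 2 and 3, but 6.45%, 2.61% and 6.45% of the mature UMIs. Their mean share was 5.17% ± 2.22 (SD, n = 3 libraries), or 6.45% without library 2. All other miRNAs held 93.5%, 97.4% and 93.5%. Of all mature and Rfam UMIs the members held 0.457%, 0.422% and 0.682%.

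The number blocks differed in size and in how even they were across libraries. The block from miR-2286 to miR-2489 held 3660, 5735 and 5099 UMIs in libraries 1, 2 and 3, which was 4.74%, 1.54% and 5.0% of the mature UMIs (mean 3.76% ± 1.93, SD, n = 3, or 4.87% without library 2). The block from miR-2881 to miR-2904 held 1322, 4011 and 1485 UMIs, which was 1.71%, 1.07% and 1.46% (mean 1.41% ± 0.321, SD, n = 3, or 1.58% without library 2). Wilson 95% intervals, which cover counting error only, were 1.5% to 1.58% for the first block and 1.04% to 1.11% for the second in library 2, so the low shares of mature UMIs there lay outside counting error. Of all mature and Rfam UMIs the first block held 0.336%, 0.248% and 0.528% in libraries 1, 2 and 3. The second held 0.121%, 0.174% and 0.154%, so its low value in library 2 depended on the mature total. The first block held the larger share in every library, with 118, 142 and 151 listed names against 16, 21 and 17.

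**Figure D1:**
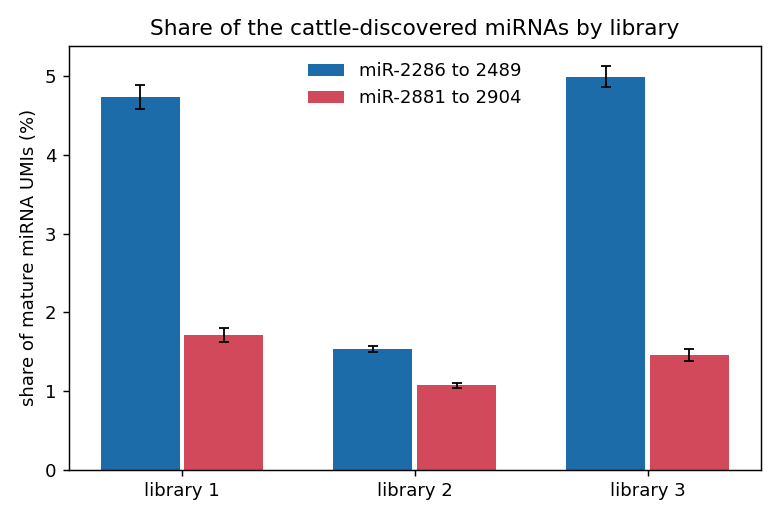
Share of the mature miRNA UMIs, in percent, held by each number block in each library. Bars are shares and error bars are Wilson 95% intervals of counting error. The first block held 4.74% in library 1, 1.54% in library 2 and 5.0% in library 3, while the second block lay between 1.07% and 1.71%.

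The second block listed only 16, 21 and 17 names in libraries 1, 2 and 3, and a few of them carried it. MiR-2889 was the highest member of all in every library, with 423, 1259 and 501 UMIs in libraries 1, 2 and 3. Its mean share was 0.459% ± 0.109 (SD, n = 3), or 0.519% without library 2, and it ranked 27th among the 745 miRNAs by mean share. It held 32%, 31.4% and 33.7% of the UMIs of its block, and 3 names were enough to reach 50% of the block in each library. Its hairpin gene overlaps ZSWIM6, which encodes a zinc finger protein.

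MiR-2898 followed with 182, 642 and 194 UMIs, a mean share of 0.199% ± 0.0328 (0.213% without library 2). Its shares were 0.236%, 0.172% and 0.190% of the mature UMIs. MiR-2890 had 130, 394 and 136 UMIs, and miR-2892 had 98, 438 and 160. The share of miR-2892 was highest in library 3 (0.127%, 0.117% and 0.157%), unlike those of miR-2889, miR-2898 and miR-2890, which were highest in library 1. No other gene of the RefSeq table overlapped the hairpin genes of miR-2898, miR-2890 and miR-2892.

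MiR-2886, whose hairpin gene overlaps HOXB3, a homeobox transcription factor gene, had 124, 302 and 113 UMIs. MiR-2881 had 100, 288 and 91 UMIs and miR-2888 had 84, 176 and 52. MiR-2888 has 2 hairpin genes in the table, so its UMIs cannot be placed at either of them. In all, 13 of the 21 names of the block were listed in every library, and 8 had at least 30 UMIs in each.

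The rest of the second block lay lower, and these names are given to account for every name of the block. MiR-2899 had 39, 104 and 45 UMIs, and miR-2887, which also has 2 hairpin genes, had 19, 58 and 37. MiR-2885, overlapping the synaptotagmin gene SYT7, had 14, 56 and 15 UMIs, and miR-2900, overlapping the imprinted zinc finger gene PEG3, had 21, 47 and 25. MiR-2895 had 19, 32 and 25 UMIs, and miR-2882, overlapping the chromatin remodeller gene SMARCA4, had 15, 19 and 11. All 6 had the most UMIs in library 2, the deepest library. The others were missing from at least 1 list. MiR-2901, miR-2903 and miR-2902 were listed in libraries 1 and 2 with 12 to 23 UMIs. MiR-2897, miR-2891, miR-2893 and miR-2904 were listed in libraries 2 and 3 with 11 to 63 UMIs, and miR-2883 was listed in library 2 alone with 32.

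The first block listed more names. It took 26, 25 and 32 of its 118, 142 and 151 listed names to reach 50% of its UMIs in libraries 1, 2 and 3. The second block took 3 of its 16, 21 and 17, and blocks of such unlike size are not comparable by these counts. No name of the first block led in all 3 libraries. MiR-2324 had 252, 227 and 212 UMIs and led in libraries 1 and 3. Near-equal UMIs in libraries of unequal depth gave it shares of 0.326%, 0.0608% and 0.208%, a mean of 0.198% ± 0.133 (SD, n = 3), or 0.267% without library 2. Its hairpin gene overlaps SF3B3, which encodes a subunit of the spliceosome's SF3B complex.

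MiR-2455 had 219, 211 and 101 UMIs, or 0.284%, 0.0565% and 0.0990% of the mature UMIs. Its mean share of 0.146% ± 0.121 rested on library 1, and was 0.0777% without library 1 and 0.191% without library 2. Its UMIs in library 2 were about those of library 1, as for miR-2324, but 2.09 times those of library 3 (1.64 to 2.68). MiR-2478 differed from both, with 90, 455 and 192 UMIs and a mean share of 0.142% ± 0.0399 (0.152% without library 2). It led the block in library 2, and its share there (0.122%) lay close to that in library 1 (0.117%) and under that in library 3 (0.188%). MiR-2305, overlapping RIN2, a gene for a Rab5-binding exchange factor, had 124, 251 and 118 UMIs.

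The next names lay under 0.1% of the mature UMIs in mean share. MiR-2389, in a stretch where C25H7orf50 and the receptor gene GPR146 overlap it, had 66, 92 and 141 UMIs in libraries 1, 2 and 3. MiR-2388-3p had 93, 118 and 75, and miR-2340, overlapping the adaptor gene SKAP1, had 59, 189 and 93. MiR-2348, overlapping TMC6, had 35, 67 and 106. In miR-2389 and miR-2348 library 3 was the highest in UMIs although library 2 was deeper, while miR-2388-3p and miR-2340 were highest in library 2. The mean shares of miR-2389 (0.0828%) and miR-2348 (0.0557%) were 0.0551% and 0.0316% without library 3, and 0.112% and 0.0746% without library 2.

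**Figure D2:**
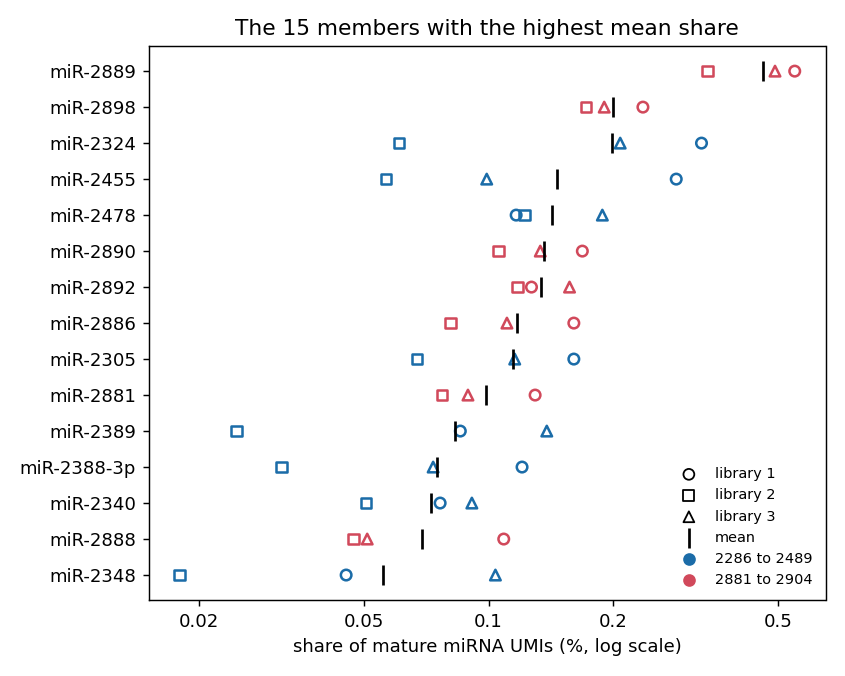
Share of mature miRNA UMIs, in percent on a log scale, of the 15 members with the highest mean share, in each of the 3 libraries, with the mean as a bar. MiR-2889 lies between 0.337% (library 2) and 0.548% (library 1), and miR-2324 between 0.0608% (library 2) and 0.326% (library 1).

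Most of the remaining names were close to the listing minimum. Of the 202 members, 105 (52.0%) had under 30 UMIs in every library, against 46.8% of all other miRNAs. Members were listed in every library in 53.5% of cases (108 names), against 60.2% of all other miRNAs. A further 47 members were listed in 2 libraries and 47 in 1. Those listed in a single library were in library 3 for 25 names, in library 2 for 18 and in library 1 for 4. Of all 745 miRNAs, 168 were listed in a single library, in library 3 for 82, in library 2 for 70 and in library 1 for 16, a like split.

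Some names were high in library 3 alone, and these were chosen after their values were seen. MiR-2313-5p had 110 UMIs there and miR-2457 had 71, and both were unlisted in libraries 1 and 2. MiR-2450c had 11, 17 and 93 UMIs in libraries 1, 2 and 3, a ratio of library 3 to library 1 of 8.45 (exact 95% interval of counting error 4.51 to 17.5). MiR-2448-5p had 16, 28 and 115 UMIs, a ratio of 7.19 (4.24 to 13.0). MiR-2468 had 18, 17 and 67 UMIs. All 5 belong to the first block. MiR-2322-5p, also chosen after its values were seen, was highest in library 1, with 55, 17 and 17 UMIs.

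Both arms were listed for 22 hairpins, all in the first block, while 149 member names carry no arm. MiR-2388, overlapping the homeobox gene CUX1, had 43, 50 and 62 UMIs for 5p and 93, 118 and 75 for 3p in libraries 1, 2 and 3. Its ratio of 5p to 3p was 0.462 (0.314 to 0.671), 0.424 (0.298 to 0.595) and 0.827 (0.581 to 1.17), so the 3p arm was the higher one beyond counting error in libraries 1 and 2 and not in library 3.

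MiR-2483, overlapping TENM1, a teneurin gene, had a different leading arm in different libraries. The 5p arm had 69, 36 and 47 UMIs and the 3p arm 46, 73 and 40. The ratio of 5p to 3p was 1.5 (1.02 to 2.23) in library 1, 0.493 (0.321 to 0.745) in library 2 and 1.18 (0.754 to 1.84) in library 3, and the intervals of libraries 1 and 2 did not overlap. The arms of miR-2436, with 31, 60 and 36 UMIs for 5p and 67, 80 and 37 for 3p, had ratios of 0.463, 0.750 and 0.973, with overlapping intervals. MiR-2411 had its UMIs mostly in 3p, with 37, 68 and 46 for 3p and 13 for 5p in libraries 1 and 3. MiR-2448-5p had 28 UMIs and miR-2448-3p 16 in library 2, a ratio of 1.75 (0.915 to 3.46) whose interval holds 1. In library 3, where miR-2448-5p was high, they had 115 and 17, a ratio of 6.76 (4.05 to 12). MiR-2367-5p had 21, 49 and 60 UMIs, and its 3p arm was listed in library 3 alone with 12. Of pairs chosen after their values were seen, miR-2415 had more 5p (33, 77 and 36 UMIs) than 3p (17, 27 and 18), and miR-2373 had less 5p (14, 24 and 14) than 3p (33, 46 and 36). The leading arm of these 2 pairs was the same in every library, beyond counting error in each.

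Most members' hairpin genes overlap protein-coding genes. In the RefSeq table of the ARS-UCD2.0 assembly, used for names and neighbouring genes only, 199 of the 202 names matched a hairpin gene. For 155 of them (77.9%) the hairpin gene overlapped a protein-coding gene, against 64.9% of the 530 other listed miRNAs with a match. Among those others, it was 63 of 78 (80.8%) for the names from miR-11900 to miR-12099. For the names of miR-2284 and miR-2285 it was 44 of 61 (72.1%), so a high value was not particular to the members. Weighted by UMIs the members were not higher, with 65.8% of their UMIs in such names, against 67.9% of those of all other miRNAs. By name the overlap was 143 of 179 (79.9%) in the first block and 12 of 20 in the second. The table gives no strand, so sense and antisense hairpins could not be told apart. None of the members' hairpin genes overlapped an annotated tRNA, rRNA, snRNA or snoRNA gene, which was also the case for all other listed miRNAs. MiR-2355-5p, miR-2417 and miR-2904 had no match.

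The overlapping genes were spread over 130 genes or sets of overlapping genes, of which 22 held more than 1 listed name, mostly as both arms of 1 hairpin. The Huntington disease gene HTT overlapped miR-2450c, miR-2450d and miR-2451. MiR-2450c had 11, 17 and 93 UMIs, miR-2450d was listed in library 3 alone with 13, and miR-2451 had 13 and 14 UMIs in libraries 1 and 2 and was unlisted in library 3. Values of 13 or 14 UMIs cannot be told from an unlisted value of up to 10 beyond counting error. SHB, an adaptor protein gene, overlapped miR-2472, miR-2473 and miR-2474, all between 11 and 22 UMIs where listed. MiR-2319a and miR-2319b, whose hairpin genes overlap each other and CKAP5, had 14, 35 and 25 against 14, 34 and 24 UMIs. Their separate levels are uncertain, since how reads that fit both were assigned is not known here. Of the annotated hairpin genes with these numbers, 159 of 208 had a listed name in the first block and 22 of 24 in the second. These are counts of genes, and miR-2887 and miR-2888 have 2 genes each. No share over all annotated hairpin genes is given, so the counts are not read as a trait of the blocks.

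The ratio of UMIs between libraries was then compared with that of other RNAs, because miRNAs and the Rfam classes did not share 1 ratio. Summed over all names, the members' ratio of library 2 to library 1 was 1.96 (exact 95% interval 1.89 to 2.02), against 5.03 (4.99 to 5.07) for all other miRNAs. The first block had 1.57 (1.5 to 1.63) and the second block 3.03 (2.85 to 3.23), so the blocks' intervals did not overlap. Without miR-2478 the first block had 1.48, and without miR-2889 the second had 3.06. By the median over names listed in both libraries, the first block had 1.38 and the second 2.55, against 1.96 for all other miRNAs. The second block thus lay above all other miRNAs by median and below them by sum. Intervals cover counting error of these libraries and not the spread between vesicle preparations.

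Among the Rfam classes, the same ratio was 1.28 for summed rRNA, 1.69 for snRNA, 2.21 for tRNA, 2.85 for signal recognition particle RNA and 3.80 for Y RNA, the partner of the Ro protein. Within rRNA, 5S rRNA had 2.17, and snoRNA had 1.76 and 7SK RNA 0.840. The interval of the first block (1.5 to 1.63) overlapped those of snRNA (1.56 to 1.83) and snoRNA (1.56 to 1.99). It also overlapped that of Rfam sequences with no family name at hand (1.62 to 2.02). The interval of the second block (2.85 to 3.23) overlapped that of signal recognition particle RNA (2.75 to 2.96). The ratio of library 3 to library 1 placed the blocks differently. It was 1.39 for the first block and 1.12 for the second, against 1.32 for all other miRNAs, 1.14 for rRNA, 1.00 for snRNA, 0.691 for tRNA, 0.847 for signal recognition particle RNA and 1.30 for Y RNA. For snoRNA it was 2.88, for 5S rRNA 2.58, for 7SK RNA 0.948 and for sequences with no family name at hand 2.25. Of 65 snoRNA sequences, 13 were listed in both libraries 1 and 2, and 16 in both libraries 1 and 3, with a median ratio of 0.860. Of 113 sequences with no family name at hand, 4 and 3 were so listed. Most sequences in the sums of these classes were thus unlisted in at least 1 library. These ratios set RNAs beside each other and do not identify the molecules. Whether UMIs of these names came from fragments of other RNAs was not tested, and mature sequences were not used here.

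Single names showed the same split of the blocks. Of the members with at least 30 UMIs in every library, the 29 of the first block had ratios of library 2 to library 1 from 0.522 to 5.06 with a median of 1.33, and the 8 of the second block had 2.10 to 4.47 with a median of 2.93. The groups overlapped, since 4 names of the first block lay at or above the lowest name of the second. The highest ratios were those of miR-2478 (5.06, 4.02 to 6.41), miR-2892 (4.47, 3.58 to 5.62), miR-2898 (3.53, 2.99 to 4.18) and miR-2340 (3.20, 2.38 to 4.37). The interval of miR-2478 held the 4.83 of all mature UMIs and lay above the 3.80 of Y RNA.

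The lowest ratios were those of miR-2483-5p (0.522, 0.339 to 0.792), miR-2286 (0.771, 0.488 to 1.21), miR-2422 (0.833, 0.561 to 1.23) and miR-2369 (0.884, 0.556 to 1.4). MiR-2422 overlaps FLNC, a filamin gene, and miR-2369 overlaps PTPRG, a receptor phosphatase gene. MiR-2286 had 48, 37 and 36 UMIs, and its hairpin gene overlaps long non-coding RNAs. Of the 29 names, 6 had fewer UMIs in library 2 than in library 1, although library 2 was the deeper one.

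For most single names counting error was too wide to place them at 1 class. The class ratios used here are those of summed UMIs, and RNAs of like UMIs are compared below. Of the 104 names of the first block listed in libraries 1 and 2, the interval of 77 held the ratio of rRNA, that of 61 held the ratio of tRNA, and that of 8 held the ratio of all mature UMIs. Of the 16 names of the second block, the interval of 5 held the ratio of rRNA, that of 9 the ratio of tRNA and that of 3 the ratio of all mature UMIs. Among the 346 other miRNAs these numbers were 164, 159 and 72. The interval lay above the ratio of all mature UMIs for 0 members, against 45 of the other miRNAs. It lay wholly below that ratio for 96 of the 104 names, 13 of the 16 names and 229 of the 346 other miRNAs. Wholly above the ratio of rRNA lay 16 of the 104, 11 of the 16 and 167 of the 346.

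**Figure D3:**
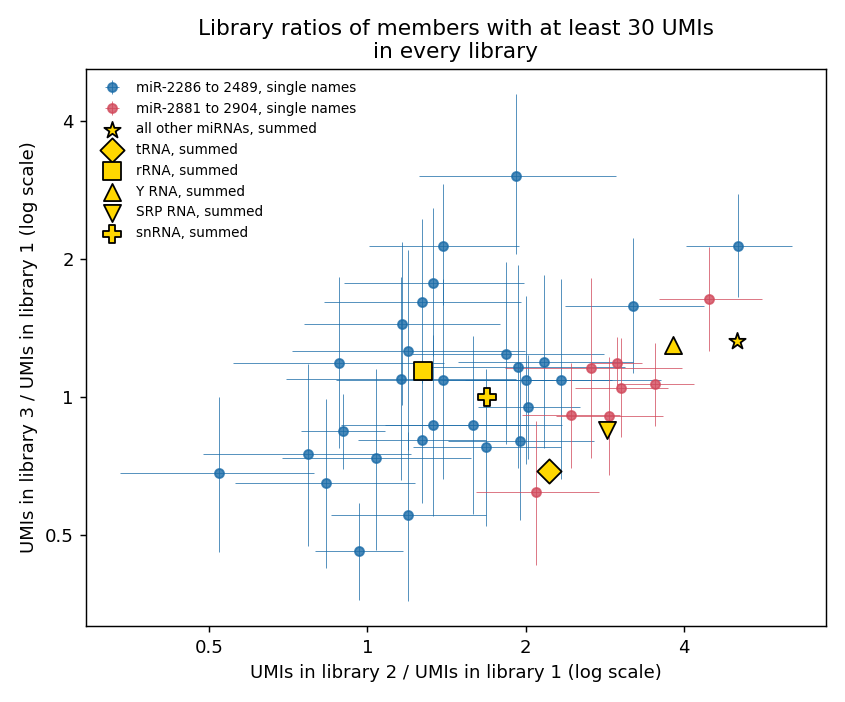
UMIs in library 2 over library 1 (x axis) and in library 3 over library 1 (y axis), both on log scales, for the 37 members with at least 30 UMIs in every library. Points are single names with exact 95% intervals of counting error, and yellow symbols are summed classes. On the x axis the names of the second block lie between 2.10 and 4.47, and most of the first block lies to their left, while all other miRNAs summed lie at 5.03.

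Ratios depend on how many UMIs a name has, so members were also set beside other RNAs of like UMIs in library 3, which is not part of the ratio. At 11 to 29 UMIs the first block had a median of 1.38 (48 names), against 1.5 for all other miRNAs (129 names), 2.29 for tRNA sequences and 2.22 for rRNA sequences. The quartiles of the block (1.09 to 1.72) lay within those of the other miRNAs (1.00 to 2.27) there. At 30 to 99 UMIs it had 1.33 (40 names), against 2.34 for all other miRNAs (121 names), 2.26 for tRNA and 1.15 for rRNA sequences. At 100 UMIs or more and under 300 it had 1.75, on 7 names, against 4.09 for all other miRNAs (43 names), 2.30 for tRNA and 1.01 for rRNA sequences. The second block had 1.96, 2.77 and 3.28 in these ranges, each on 4 names.

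**Figure D4:**
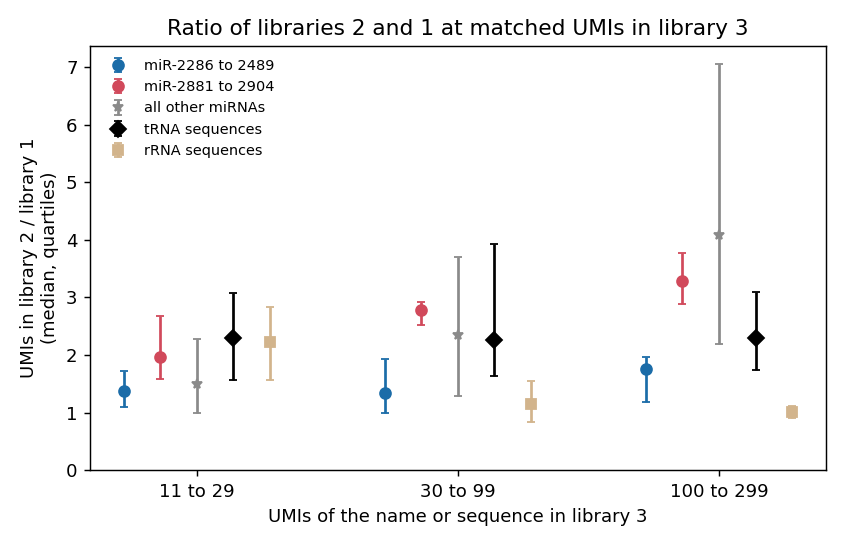
Median ratio of UMIs in library 2 to library 1, with quartiles as bars, for names or sequences grouped by their UMIs in library 3. The first block stays between 1.33 and 1.75 over the 3 ranges, while all other miRNAs lie at 1.5, 2.34 and 4.09.

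A share at least 1.5-fold lower in library 2 than in library 1 was found for 114 of the 120 members listed in both, in a background of 76.0% of all 466 miRNAs. It was found for 101 of 104 names of the first block and 13 of 16 of the second. A share at least 1.5-fold higher was found for none of the members, in a background of 6.87%. Other cattle names were alike, since 52 of 54 from miR-11900 to miR-12099 were lower and 0 higher. Of the names of miR-2284 and miR-2285, 22 of 27 were lower and 1 higher. These counts come from 1 library on each side, so no test was made. The median miRNA itself lay 1.42 under the ratio of mature UMIs on the log2 scale, since a few abundant miRNAs set that total.

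With totals scaled by TMM in edgeR, which puts the median miRNA at -0.15, 48 members were lower and 9 higher, against 32% lower and 27.9% higher among all miRNAs. In the first block 45 of 104 were then lower and 4 higher, while in the second 3 of 16 were lower, 5 higher and 8 neither. A scaling multiplies the ratio of every name by 1 common factor, so it moves these counts and not the order of the names. With DESeq2 size factors 41 of the first block were lower and 4 higher, and 3 of the second were lower and 7 higher. The background over all miRNAs was then 28.8% lower and 29.4% higher.

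Libraries 1 and 3 differed less. Between them the share of 36 of 118 members was at least 1.5-fold lower in library 3, in a background of 22.6%, and that of 14 was at least 1.5-fold higher, in a background of 15.7%. All 14 belonged to the first block, in which 34 of 105 were lower. Between libraries 2 and 3, 121 of 133 members had a share at least 1.5-fold lower in library 2, in a background of 72.4%, and none higher, in a background of 1.73%. It was 112 of 116 in the first block and 9 of 17 in the second. For the names from miR-11900 to miR-12099 it was 50 of 59, and for those of miR-2284 and miR-2285 it was 26 of 34. Of the 37 members with at least 30 UMIs in every library, 36 had their lowest share in library 2, against 82 of 151 other miRNAs. MiR-2478 was the exception.

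Other runs of cattle names were set beside the members. The names from miR-11900 to miR-12099 held 5.28%, 2.12% and 4.45% of the mature UMIs with 80 names. The members' ratio of library 2 to library 1 was 1.96 (1.89 to 2.02), against 1.94 (1.87 to 2.01) for that run, and these intervals overlapped, although the members' value pools blocks that differed from each other. The names of miR-2284 and miR-2285, which directly precede the first block in number, held 1.02%, 0.550% and 1.60% with 66 names, and their ratio was 2.60 (2.40 to 2.83), which lay above the first block (1.57) and below the second (3.03). Their share was highest in library 3. The members' 6.45% in both libraries 1 and 3 pools blocks of opposite order. The first block had 4.74% in library 1 and 5.0% in library 3, with overlapping Wilson intervals, and the second had 1.71% and 1.46%.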

How the data were processed

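Libraries of BM-EV small RNA (3, all of 1 condition) carried unique molecular indices. Reads were trimmed, filtered for quality and mapped to miRBase before Rfam, and the authors deposited unnormalized UMI counts for mature miRNAs and for Rfam sequences. Bowtie 1.2.2, cutadapt 2.7 and FastQC are named in the submitters' processing notes. The build, database versions, mismatches and use of strand are not given in the sources used here. Mapping to miRBase first means that a fragment of another RNA that matches a miRNA entry is counted there.

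The depths were 77225 to 373239 mature UMIs. Members were matched by the number after bta-miR-. Unlisted names entered sums, and the ratios of sums, as 0. Ratios of single names and their medians used names listed in both libraries. Intervals were Wilson for shares and exact (Clopper-Pearson) for ratios, both at 95% and for counting error only, and were checked on simulated counts. Rfam classes used family names from a supplementary table, at hand for 1518 of 1631 listed sequences. TMM (edgeR 4.0.16) and DESeq2 1.42.0 scaled the 435 miRNAs listed in every library. Other software was matplotlib 3.10.9, scipy 1.17.1, numpy 2.4.6, pandas 2.3.3, Python 3.11.15 and R 4.3.3. Hairpin and neighbouring genes came from the RefSeq table of ARS-UCD2.0. Mature sequences were not used here.

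Named were the 15 members of the highest mean share, those with at least 100 UMIs in every library, the 4 highest and 4 lowest library ratios among members with at least 30 UMIs in every library, and the 8 highest members with both arms listed. Other names are marked as chosen after their values were seen, or are examples for a gene, an arm pair or a missing match. The members, lists and alternatives were chosen with earlier results of these data known. The planned sequence features were not run.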

Additional observations from a re-analysis of the deposited data

How the results depend on the processing

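No paired analysis was possible because there is 1 group only. Of all mature and Rfam UMIs, the members held 0.520%, the first block 0.371% and the second 0.150%, and without the 20 highest miRNAs in the total 19.2%, 13.7% and 5.49%, as the totals differ. With at least 30 UMIs in every library the first block held 1.74%. Leaving out 1 library gave 4.53% to 6.45% for all members, 3.14% to 4.87% for the first block and 1.26% to 1.58% for the second, each within 1 SD, which follows from the construction. Of the 202, 181 and 21 names, 108, 95 and 13 were listed in every library, and 37, 29 and 8 had at least 30 UMIs in each. The median library 2 to library 1 ratio was 1.39 for all members, 1.38 for the first block and 2.55 for the second, against 1.96 for all other miRNAs. With at least 30 UMIs it was 1.68 for all members and 2.93 for the second block, from summed UMIs 1.96, 1.57 and 3.03, and without the 12 highest members 1.89 for the second block. Of 120 members (104 and 16 by block) listed in both of these libraries, 114 (101 and 13) lay at least 1.5-fold under the mature total. This became 48 (45 and 3) with TMM and 44 (41 and 3) with DESeq2, whose backgrounds are given above. Against all UMIs it was 62 (58 and 4), in a background of 36.9%. Against the median miRNA, an alternative chosen after seeing the data, it was 39 (37 and 2), in a background of 25.8%. By that alternative 4 of the 104 and 7 of the 16 were higher, in a background of 30.9%. Of the 37 members (29 and 8) with at least 30 UMIs in every library, 34 (28 and 6) lay under the mature total. At 2-fold the second block had 7 of 16. No background is given for these last settings. The settings leaving out miR-2478 or miR-2889 were also chosen after seeing the data. Leaving out names that share a mature sequence was not run. At 11 UMIs a share has a wide counting error, so single names near the listing minimum are not ordered.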
